A study of Mus musculus with 8 samples.

Results

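The genes described here are 34 genes of the endoplasmic reticulum (ER): unfolded protein sensors, chaperones, disulfide enzymes, translocon subunits and ER-associated degradation (ERAD) genes. They were listed by symbol, and all 34 were found among the 49492 rows of the deposited table. RNA-seq was performed in mouse embryonic fibroblasts (MEFs), which are connective tissue cells grown in culture from embryos. Pontin, an ATPase of chromatin remodelling complexes encoded by Ruvbl1, was wild-type (Pontin WT, here WT) or carried alanine in place of a pair of arginines (Pontin RA, here RA). Per the study's methods, the cells came from MEFs with a floxed Pontin gene, were infected with a lentivirus for Flag-tagged WT or RA Pontin, and were selected as stable lines. The endogenous gene was then deleted in both genotypes with a Cre virus. Each genotype was kept in normal medium (fed) or in glucose-free medium with dialyzed serum (starved), with 2 samples in each of the 4 groups. The duration of starvation for these samples is not given in the sources used here. WT and RA are separate lines, so a difference between lines and a difference between the forms of Pontin cannot be told apart.

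Proteins that enter the secretory pathway are folded in the ER with the help of Hsp70-type and Hsp90-type chaperones, lectin chaperones that bind N-linked sugars, and enzymes that form disulfide bonds. When unfolded proteins accumulate, the sensors IRE1 (Ern1), ATF6 (Atf6) and PERK (Eif2ak3) start the unfolded protein response, which raises transcription of chaperone and ERAD genes and slows translation. Several of these chaperones were first known as glucose-regulated proteins, because N-glycosylation needs sugars made from glucose and falters when cells are deprived of it.

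Values are counts per unit of library total (CPM), where the authors adjusted the total of each library, and are here called scaled CPM. Between 43205841 and 56363034 reads were recovered per sample from these values. A value of 3 reads corresponded to 0.0548 to 0.069 scaled CPM, a floor that covers counting error only. Of the 34 genes, 33 passed the filter on low values (at least 1 in at least 2 samples) and were tested among 16232 genes. The exception was Derl3, which had at most 0.901 in any sample. Fibroblast markers were present, with Vim, an intermediate filament, at 1826 or more in every sample, whereas the leukocyte marker Ptprc and the endothelial marker Cldn5 lay at or below the 3-read level in all 8. Of 12 fibroblast markers, 11 passed the filter. Their sum was 8207 to 8359 in fed WT, 3266 to 3327 in starved WT, 8022 to 8354 in fed RA and 4166 to 4170 in starved RA. The sum therefore fell with starvation in both genotypes, mainly through Col1a1, Col1a2 and Vim. Not every marker fell, since Dcn and Fap rose in both genotypes, and Thy1 in RA was at 277.6 fed and 281.5 starved. The part of these markers in the results below was not tested. The marker Lum was at most 0.363 in any sample. The summed levels of epithelial markers (3 of 6 passed the filter) were 83.2 to 89.9, 37.3 to 38.8, 89.5 to 101.9 and 64.9 to 68.8 in the same order of groups. Neural markers (4 of 6 passed) gave 355.4 to 358.2, 76.8 to 80.1, 350.3 to 351.2 and 168.1 to 171.6. Krt19 carried most of the epithelial sum, while Epcam was at most 0.174 in any sample. Nes, Tubb3 and Map2 carried most of the neural sum, while Sox10 lay at or below the 3-read level in 7 of the 8 samples. Endothelial markers (2 of 6 passed) summed to 2.62 to 3.44, 8.92 to 9.43, 2.05 to 3.42 and 6.03 to 6.38, and leukocyte markers (2 of 6 passed) to 13.4 to 14.0, 24.2 to 25.2, 16.3 to 17.7 and 21.3 to 21.8. These last lists were higher under starvation in both genotypes, mainly through Kdr, Tek and Csf1r, and their part in the results was likewise not tested. In bulk samples, fewer cells of a type and less RNA per cell cannot be told apart. Ruvbl1 itself was at 28.0 ± 0.58 (SD, n = 2) in fed WT, 28.2 ± 0.38 in starved WT, 34.4 ± 3.4 in fed RA and 44.0 ± 1.5 in starved RA. It was higher in RA in both media. RA minus WT was 0.29 on the log2 scale when fed (limma adjusted p = 0.00946) and 0.62 when starved (2.94e-07). The interaction, the log2 change with starvation in RA minus that in WT, was 0.34 (limma adjusted p = 0.00568). The part of this difference in the results below was not tested. The values do not separate the added copy from the endogenous gene.

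The promoters of ER chaperone genes are known for the ER stress element (ERSE), bound by NF-Y at its CCAAT end and by ATF6 or XBP1 at its CCACG end. Windows of 250 bases before to 50 after the start (RefSeq, GRCm38.p6) were held for 28 of the 34 genes. Both strands were searched for ERSE (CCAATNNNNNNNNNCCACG, N being any base), ERSE-II (ATTGGNCCACG) and the core of the unfolded protein response element (TGACGTGG). These patterns differ in spacing and were counted separately. ERSE was found in 10 of the 28 genes and in 0.137% of all 27025 genes with a window. ERSE-II was found in 2 of the 28 and in 0.0444% of all genes. TGACGTGG was in 0 of the 28 and in 0.714% of all genes, which says only that these letters are not in these windows. The 13 elements, in 12 genes, are shown as the 27 bases around each, read 5′ to 3′ on the strand where the element runs as spelled above, with the fixed letters at both ends of the element in capitals. They are printed because the fixed ends and the free spacer can be compared across genes that differed widely in their response.
Hspa5: ttcaCCAATcggaggcctCCACGacgg
Hsp90b1, distal: aagcCCAATcgcaaggagCCACGcttc
Hsp90b1, proximal: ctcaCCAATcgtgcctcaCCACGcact
Calr: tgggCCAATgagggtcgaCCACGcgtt
Canx: ttgaCCAATcaccacgctCCACGaaga
Creld2: tggaCCAATtgaggctcgCCACGagaa
Dnajc3: acaaCCAATcagcgccaaCCACGaccc
Pdia6: gagaCCAATgaaaggcggCCACGgcgt
Ero1lb: gcggCCAATgaggcgggaCCACGaggc
Syvn1: gcaaCCAATcggcggtagCCACGggaa
Derl3: ctagCCAATggggaagtcCCACGgtag
Herpud1 (ERSE-II): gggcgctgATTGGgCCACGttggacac
Dnajb11 (ERSE-II): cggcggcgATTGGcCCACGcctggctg

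Of the 13 elements, 8 ran on the strand of the gene and 5 on the opposite strand (Calr, Creld2, Derl3, Ero1lb and the proximal one of Hsp90b1). The Hspa5 element lies at chr2:34772021-34772047, centred 56 bases before the RefSeq start. In GENCODE M21 (GRCm38) Hspa5 spans chr2:34771970-34777547 on the plus strand, so by that annotation the gene begins before the element. The elements of Hsp90b1, a gene on the minus strand, lie at chr10:86705634-86705660 and chr10:86705529-86705555. The element of Dnajb11 lies at chr16:22857844-22857870 and is centred 12 bases after the RefSeq start, whereas the other 12 elements lie before theirs.

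**Figure D1:**
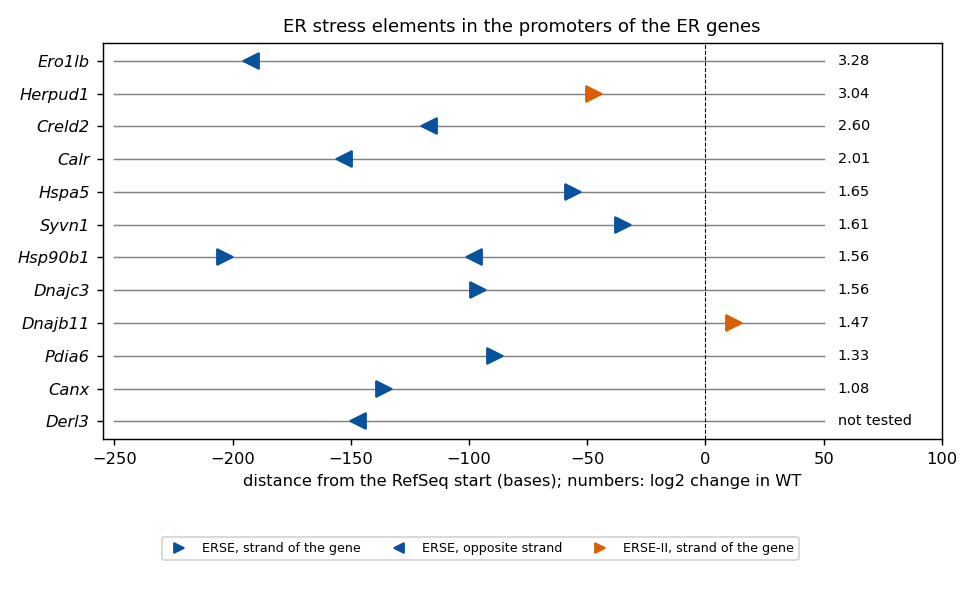
Positions of ERSE (blue) and ERSE-II (orange) in 12 promoters: the x axis gives the distance in bases from the RefSeq start, each line spans the window searched, and the triangle points the way the element runs. The numbers at the right are log2 changes in starved against normal WT, from 3.28 (Ero1lb) to 1.08 (Canx). Derl3 was too low to be tested.

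For 3 genes the whole 250 bases before the start are given on the strand of the gene. They stand for an ERSE-II gene with nearly the same log2 change in both genotypes (Herpud1), an ERSE gene that rose less in RA (Creld2) and a gene that rose strongly with no exact match (Sdf2l1). Capitals mark the whole element. In Creld2 the element runs on the opposite strand, so it is seen here as its reverse complement. The windows, each including 50 bases after the start that are not shown, are chr8:94386179-94386478 for Herpud1 (plus strand), chr15:88819396-88819695 for Creld2 (plus) and chr16:17132334-17132633 for Sdf2l1 (minus), all in GRCm38.p6.
Herpud1: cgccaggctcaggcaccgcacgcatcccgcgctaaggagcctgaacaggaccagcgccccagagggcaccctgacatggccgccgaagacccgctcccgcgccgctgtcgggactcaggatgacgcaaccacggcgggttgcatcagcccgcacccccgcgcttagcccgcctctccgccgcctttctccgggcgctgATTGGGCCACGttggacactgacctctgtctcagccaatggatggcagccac
Creld2: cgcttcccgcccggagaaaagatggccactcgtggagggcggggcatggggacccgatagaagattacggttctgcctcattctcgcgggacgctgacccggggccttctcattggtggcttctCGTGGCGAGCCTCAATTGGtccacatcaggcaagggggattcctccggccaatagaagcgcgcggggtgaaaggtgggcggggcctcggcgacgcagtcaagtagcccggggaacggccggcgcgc
Sdf2l1: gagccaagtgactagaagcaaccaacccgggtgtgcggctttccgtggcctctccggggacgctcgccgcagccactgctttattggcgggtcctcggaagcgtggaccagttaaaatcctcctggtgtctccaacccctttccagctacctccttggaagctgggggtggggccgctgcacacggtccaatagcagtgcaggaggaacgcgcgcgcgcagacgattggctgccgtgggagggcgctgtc

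Taken as a whole, the ER genes made up a larger part of the libraries after starvation, and more so in WT than in RA. The 34 genes held 1.02% and 1.03% of all recovered reads in the samples of fed WT and 2.91% and 2.97% in starved WT. In RA they held 0.949% and 0.957% in normal medium and 1.74% and 1.73% in starved cells. Both starved RA samples thus lay above every sample in normal medium and below both starved WT samples. Hspa5, Hsp90b1 and Calr together carried 1.48% and 1.53% of the reads in starved WT and 0.872% and 0.864% in starved RA. Per kilobase of exon (GENCODE M21, GRCm38), the highest levels in starved WT were 2231 scaled CPM for Calr, 1229 for Hsp90b1, 941.3 for Hspa5 and 820.7 for Pdia3.

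**Figure D2:**
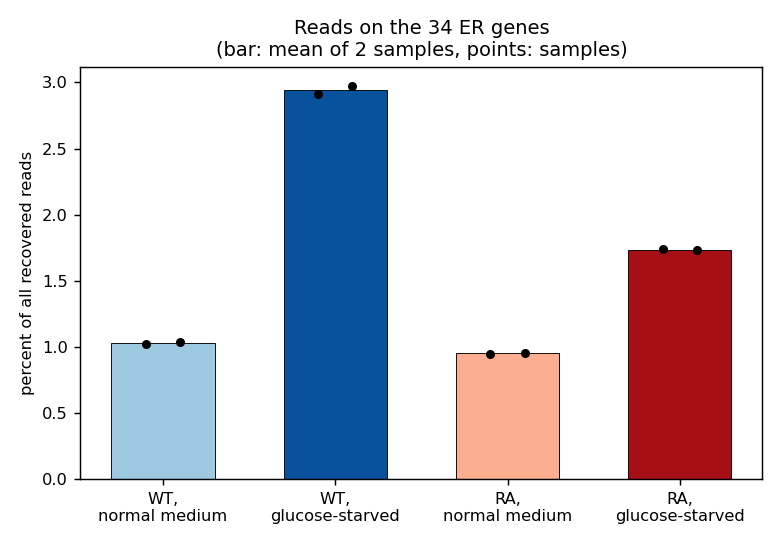
Percent of all recovered reads that fell on the 34 ER genes (y axis) in each of the 4 groups; bars are means of 2 samples and points are the samples. The starved WT samples (2.91 and 2.97) lie highest and the starved RA samples (1.74 and 1.73) lie between them and the samples in normal medium.

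**Figure D3:**
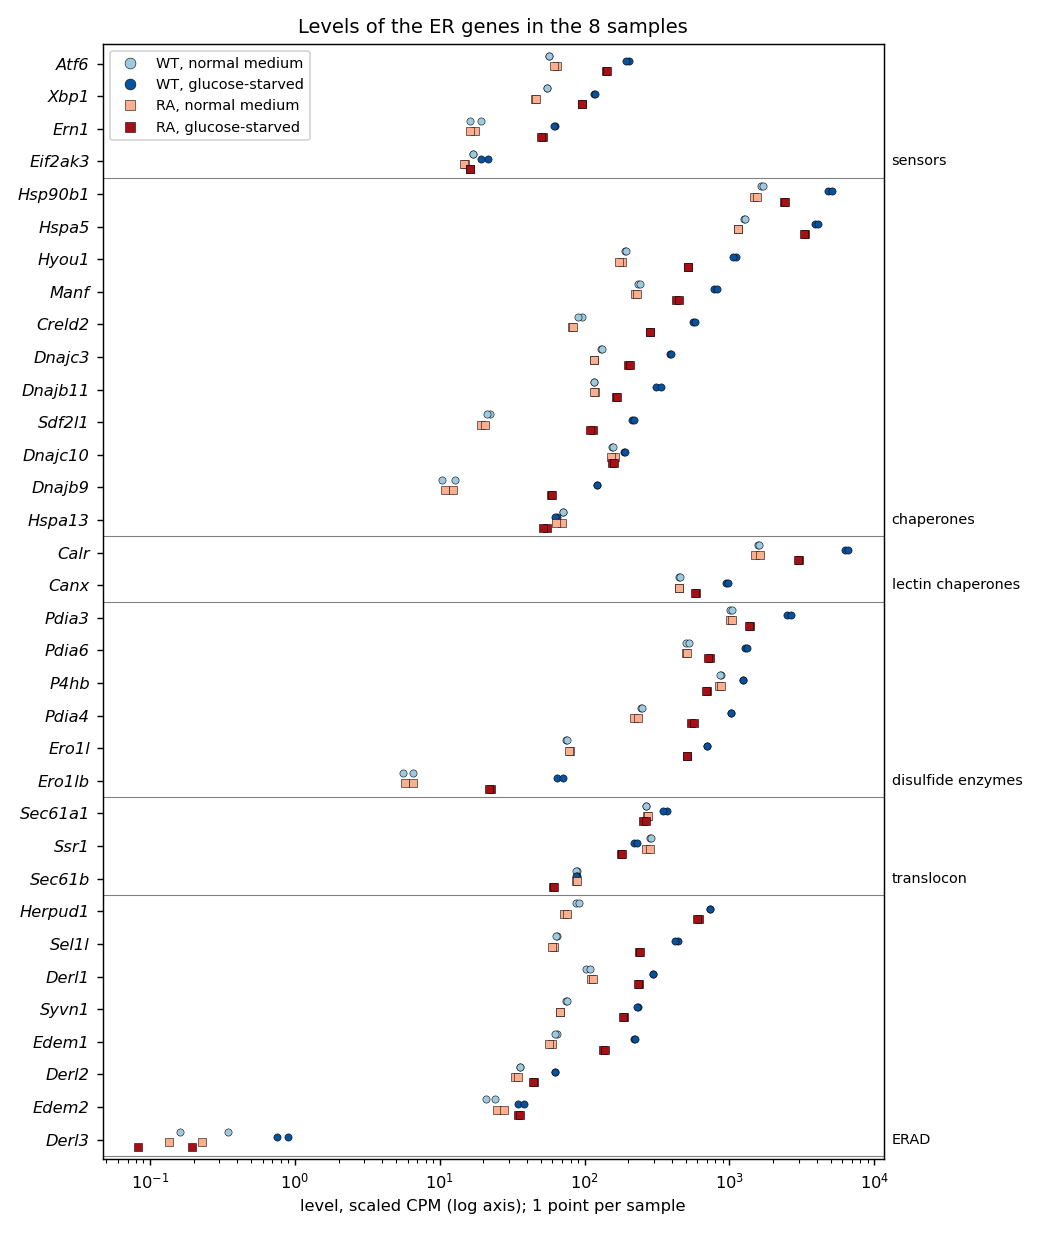
Level of each ER gene in scaled CPM (x axis, log scale) in the 8 samples, 1 point per sample, with genes grouped by role and ordered by their mean in starved WT. Blue circles are WT and red squares RA, light in normal medium and dark when starved; for 32 of the 33 tested genes both starved RA points lie to the left of both starved WT points, the exception being Edem2, and the same held for 41.8% of all 16232 tested genes.

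To examine how the ER genes respond to the loss of glucose, starved and normal samples were compared within each genotype. In WT, 30 of the 33 tested genes rose and 2 fell (limma, Benjamini-Hochberg adjusted p under 0.05, over all 16232 genes). The background was high, since 39.3% of all genes rose and 39.2% fell in WT. A rise of at least 2-fold was seen for 24 of the 33 ER genes and for 7.84% of all genes. The median log2 change was 1.56 over the ER genes and 0.01 over all genes. Sec61b, a subunit of the translocon, was the gene that did not pass the test, and Hspa13 and Ssr1 were those that fell.

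In RA, 26 of the 33 genes rose, 4 fell (P4hb, Sec61b, Ssr1 and Hspa13) and 3 did not pass the test (Eif2ak3, Dnajc10 and Sec61a1). Of all genes, 35% rose and 33.7% fell in RA. At least 2-fold rises were seen for 16 of the 33 ER genes, against 4.44% of all genes. The median log2 change was 0.94 over the ER genes and 0.01 over all genes. All 26 that rose in RA also rose in WT, and P4hb rose in WT and fell in RA. Across the 33 genes the WT and RA changes had a Pearson correlation of 0.937 and a Spearman correlation of 0.943, a description over genes measured in the same libraries.

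The responses of both genotypes were then compared by their interaction, the log2 change in RA minus that in WT. It was called as lower for 26 of the 33 ER genes and as higher for 0. Among all genes 26.1% were called lower and 24.5% higher. At 2-fold or more, the interaction was lower for 3 ER genes (Ero1lb, Calr and Dnajb9), against 1.06% of all genes. The median interaction was -0.62 over the ER genes and -0.01 over all genes, and the estimate was negative for all 33. Those of Xbp1 and Herpud1, which did not pass the test, turned positive with total-read scaling (0.0555 and 0.0497) and with edgeR (0.0166 and 0.0107). For the 24 ER genes with a WT rise of this size, the RA change was a median of 66.3% of the WT change on the log2 scale, from 31.5% (Pdia3) to 99.3% (Herpud1). For all 1272 genes with a WT rise of 2-fold or more this median was 63.3%, with a range of -22.0% to 230.7%, so the ER genes lay near the background here. Both sets were chosen by their rise in WT, which in itself favors a smaller change in RA.

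**Figure D4:**
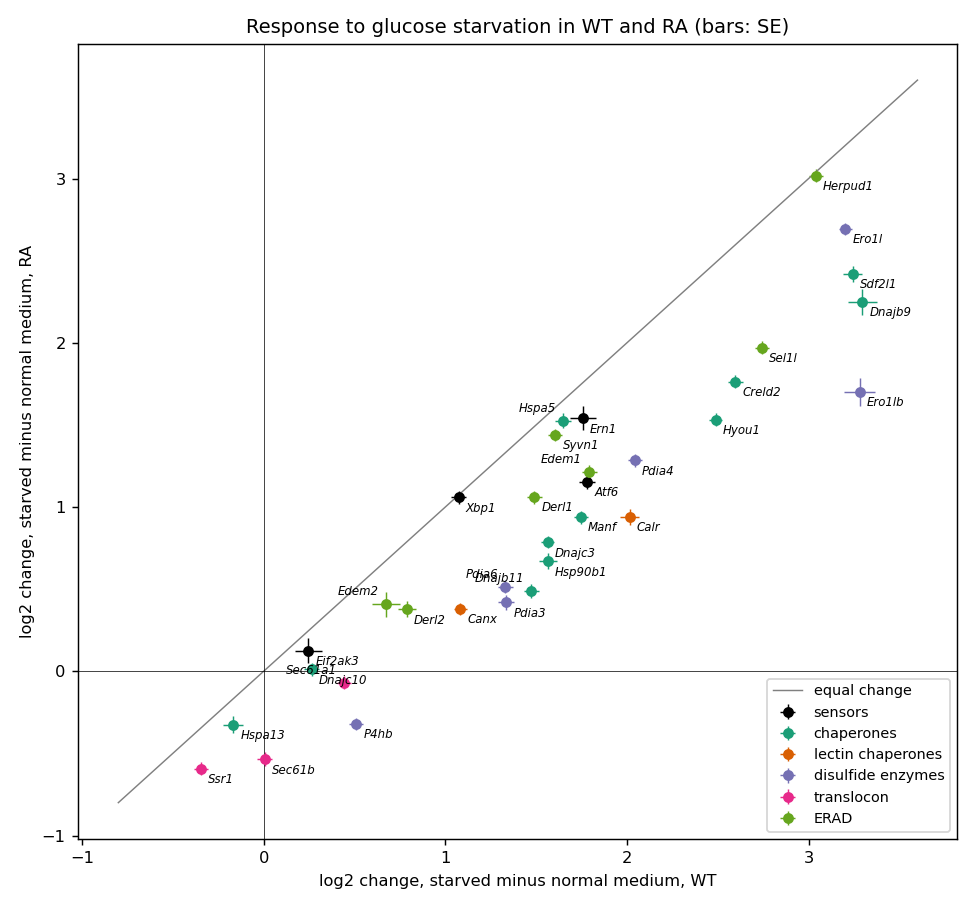
Log2 change with starvation in WT (x axis) and in RA (y axis) for the 33 tested ER genes, colored by role, with SE bars and a grey line of equal change. Herpud1 (3.04 and 3.02) and Xbp1 (1.07 and 1.06) lie on the line, and Ero1lb (3.28 and 1.70) lies farthest below it.

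Among the sensors and Xbp1, transcripts of Ern1, Atf6 and Xbp1 rose in both genotypes. The interaction passed the test for Atf6, while that of Ern1 depended on the settings. Ern1, the kinase and nuclease that splices Xbp1 mRNA, was at 19.3 and 16.1 in fed WT and at 62.3 and 61.6 in starved WT. In RA it was at 17.6 and 16.2 in normal medium and at 51.8 and 50.3 when starved. The groups overlapped in normal medium but not under starvation. Its log2 change was 1.76 (SE 0.073) in WT and 1.54 (SE 0.073) in RA, and the interaction of -0.22 (95% interval -0.43 to 0.0014) did not pass the test (limma adjusted p = 0.0914). Leaving out the first sample of fed WT gave -0.342 (limma adjusted p = 0.00772), and leaving out the second of fed RA gave -0.274 (limma adjusted p = 0.0446).

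Atf6, a membrane-bound transcription factor that is cut loose in the Golgi, was at 57.0 and 56.4 in fed WT and at 202.3 and 192.3 in starved WT. In RA the samples were at 64.4 and 61.6 when fed, above both WT samples, and at 139.9 and 143.1 when starved, below both starved WT samples. The higher level in fed RA (log2 difference 0.15, limma adjusted p = 0.0351) did not pass the test under 8 alternatives. Among these were edgeR (adjusted p = 0.0618), DESeq2 (0.0923), total-read scaling (limma, 0.167) and leaving out the first (limma, 0.148) or second (0.154) sample of fed WT or the first of fed RA (0.13). The log2 change was 1.78 (SE 0.042) in WT and 1.15 (SE 0.042) in RA, with an interaction of -0.63 (limma adjusted p = 2.33e-07).

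Xbp1 encodes the transcription factor made active by IRE1 splicing, which values per gene do not show. It was at 55.25 and 54.7 in fed WT, 115.9 and 117.7 in starved WT, 45.2 and 46.0 in fed RA, and 96.15 and 95.99 in starved RA. RA lay below WT by a like step in both media. RA minus WT on the log2 scale was -0.26 (SE 0.041) in normal medium and -0.28 (SE 0.041) under starvation, and the changes of 1.07 in WT and 1.06 in RA gave an interaction of -0.02 (95% interval -0.14 to 0.11, limma adjusted p = 0.848).

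Eif2ak3, the kinase that slows translation through eIF2alpha, moved little. It was at 16.9 and 16.9 in fed WT, 21.4 and 19.1 in starved WT, 14.9 and 14.6 in fed RA, and 16.3 and 16.1 in starved RA. All 4 RA samples lay below all 4 WT samples. The log2 change was 0.25 (SE 0.075, limma adjusted p = 0.00685) in WT and 0.13 (limma adjusted p = 0.151) in RA, and the interaction did not pass the test (-0.12, 95% interval -0.35 to 0.10). Without the first starved WT sample the change in WT was 0.168 (limma adjusted p = 0.0996).

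Of the 11 chaperones and their partners, 10 rose in WT and 9 in RA, and 9 had a lower response in RA. Hspa5 (BiP or GRP78), the Hsp70 of the ER that also holds the sensors inactive, was at 1253 and 1286 in fed WT and at 3893 and 4068 in starved WT. In RA it was at 1152 and 1142 in normal medium and at 3338 and 3271 when starved. The groups did not overlap in either medium, with RA lower in both. In normal medium the log2 difference of -0.15 lay close to the threshold (limma adjusted p = 0.0488). It did not pass with only the groups compared (limma adjusted p = 0.0558) or without the filter (0.179). It kept the call with edgeR and DESeq2. Leaving out a fed sample gave differences from -0.165 to -0.128. The log2 change was 1.65 (SE 0.045) in WT and 1.53 (SE 0.045) in RA. The interaction of -0.12 (95% interval -0.26 to 0.01) did not pass the test (limma adjusted p = 0.12) and was the smallest of the chaperones. With DESeq2 on recovered reads it was called (-0.121, adjusted p = 0.0282).

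Hsp90b1 (GRP94), the Hsp90 of the ER, rose in both genotypes and by less in RA. It was at 1642 and 1707 in fed WT, 4815 and 5095 in starved WT, 1481 and 1549 in fed RA, and 2396 and 2428 in starved RA. Its starved RA level was 48.7% of that in starved WT, against 83.0% for Hspa5. The log2 change was 1.56 (SE 0.048) in WT and 0.67 (SE 0.048) in RA, with an interaction of -0.89 (limma adjusted p = 1.44e-08). Hsp90b1 shares 632 exon bases in GENCODE M21 with other annotated genes, among them 1810014B01Rik on the opposite strand and Gm15344 on the same strand. These were at 957.7 and 289 in fed WT and at 2904 and 897.5 in starved WT, so reads of this locus cannot be assigned to 1 gene with certainty. Exon bases are also shared with other annotated genes for Manf, Sec61a1, Eif2ak3, Derl2, Syvn1, Pdia3, Pdia4, Pdia6 and Dnajb9.

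Dnajb9 (ERdj4), a J-domain partner of BiP, was at 10.3 and 12.8 in fed WT, 122.5 and 121.3 in starved WT, 12.3 and 10.95 in fed RA, and 58.4 and 59.7 in starved RA. The genotypes overlapped in normal medium, and the starved RA samples were far below those of starved WT. Its log2 change of 3.30 (SE 0.079) in WT was the highest estimate of the 33 genes, with Ero1lb (3.28) within its error, and that in RA was 2.25 (SE 0.079). With edgeR the order in WT was reversed, at 3.36 for Dnajb9 and 3.44 for Ero1lb. The interaction of Dnajb9 was -1.05 (limma adjusted p = 9.2e-07), the largest in size of the chaperones.

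The other chaperones followed with mean levels that in starved RA were 47.6% (Hyou1) to 84.2% (Hspa13) of those in starved WT. Hyou1 (GRP170), which exchanges the nucleotide of BiP, moved from 191.8 ± 2.3 to 1081 ± 37 in WT, whereas RA moved from 177.3 ± 4.7 to 514.9 ± 1.1 (SD, n = 2). Sdf2l1, a component of ER chaperone complexes, reached 214.5 from 21.8 in WT, and 111.1 from 19.96 in RA. Creld2, a secreted ER stress protein, reached 568 from 93.2 in WT, and 281.4 from 82.2 in RA. Their interactions were -0.95 for Hyou1, -0.82 for Sdf2l1 and -0.83 for Creld2. Manf, a secreted factor that binds BiP, had log2 changes of 1.75 in WT and 0.94 in RA. The J-domain genes Dnajb11 (1.47 and 0.49) and Dnajc3 (1.56 and 0.79), the latter an inhibitor of PERK, rose less in RA. Dnajc10, a J-domain disulfide reductase, rose by 0.27 in WT, while its change of 0.01 in RA did not pass the test. Hspa13, an Hsp70 family member of microsomes, fell in both genotypes (log2 change -0.17 in WT and -0.32 in RA). Its interaction was -0.16 (95% interval -0.31 to 0.0011, limma adjusted p = 0.0915), and -0.225 (limma adjusted p = 0.0165) without the second sample of fed RA. The fall of Hspa13 in WT did not pass the test without the second starved WT sample (-0.143, limma adjusted p = 0.0579).

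Both lectin chaperones rose in both genotypes and less in RA. Calr, soluble calreticulin, was at 1570 and 1608 in fed WT, 6246 and 6604 in starved WT, 1506 and 1628 in fed RA, and 3021 and 2992 in starved RA. The genotypes overlapped in normal medium and were widely apart under starvation. Calr rose 4.04-fold in WT against 1.92-fold in RA (ratio of means), with an interaction of -1.07 (SE 0.072, limma adjusted p = 2.94e-09). Canx, the membrane-bound calnexin, was at 449.8 and 458 in fed WT, 950.3 and 973.6 in starved WT, 448.4 and 447.4 in fed RA, and 585.7 and 581.4 in starved RA. Its interaction was -0.70 (SE 0.051, limma adjusted p = 8.56e-09).

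All 6 disulfide enzymes rose in WT, 5 rose in RA, and the interaction was lower for all 6. The paralogs Ero1l and Ero1lb encode the oxidases ERO1-alpha and ERO1-beta, which pass electrons from protein disulfide isomerases to oxygen. Ero1l was at 74.1 and 75.8 in fed WT, 695.7 and 700.1 in starved WT, 78.8 and 77.9 in fed RA, and 512.7 and 512.4 in starved RA. Ero1lb was at 5.61 and 6.51 in fed WT, 64.8 and 70.4 in starved WT, 5.75 and 6.51 in fed RA, and 22.5 and 21.85 in starved RA. Both rose about alike in WT on the log2(value + 1) scale, with changes of 3.20 for Ero1l and 3.28 for Ero1lb. The ratios of means were 9.31 for Ero1l and 11.15 for Ero1lb, whose level in normal medium was low. In RA the log2 changes were 2.69 for Ero1l and 1.70 for Ero1lb, and the starved RA level was 73.4% of starved WT for Ero1l and 32.8% for Ero1lb. The interactions of -0.51 (SE 0.050, limma adjusted p = 3.46e-07) for Ero1l and -1.58 (SE 0.12, limma adjusted p = 1.74e-08) for Ero1lb were the smallest and the largest in size of the disulfide enzymes, and the latter was the largest of all 33 genes.

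The isomerases Pdia3 (ERp57, the partner of the lectin chaperones), Pdia4 (ERp72) and Pdia6 (P5) rose in both genotypes. Their mean levels in starved WT were 2576 ± 103, 1021 ± 4.7 and 1301 ± 29, and in starved RA 1368 ± 12, 552.5 ± 19 and 722.2 ± 14 (SD, n = 2). P4hb (PDI itself, also a subunit of collagen prolyl hydroxylase) moved in opposite directions. WT went from 866.8 ± 8.5 to 1234 ± 3.0 (log2 change 0.51, limma adjusted p = 1.64e-09). RA went from 862 ± 19 to 689.8 ± 6.1 (log2 change -0.32, limma adjusted p = 1.02e-06).

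In WT the median log2 change of the 3 translocon genes was 0.01, against 1.65 for the 11 chaperones. Their interaction was called lower for all 3, as for 9 of the 11 chaperones. Most further genes of entry into the ER, counted below, rose in WT. Sec61b, the beta subunit of the channel, was at 88.9 and 86.95 in fed WT, 88.8 and 87.8 in starved WT, 87.5 and 89.0 in fed RA, and 60.25 and 60.99 in starved RA. Only the starved RA samples stood apart from the other 6. The log2 change was 0.01 (95% interval -0.08 to 0.09) in WT and -0.53 (SE 0.041) in RA, with an interaction of -0.54 (limma adjusted p = 8.47e-07). Ssr1, a subunit of the translocon-associated complex, was at 283.6 and 286.8 in fed WT, 218.8 and 230.2 in starved WT, 265.8 and 281.2 in fed RA, and 179.3 and 182.4 in starved RA. It fell in both genotypes, and by more in RA (interaction -0.25, limma adjusted p = 0.00153). Sec61a1, the pore subunit, rose by 0.44 in WT, and its change of -0.07 in RA did not pass the test (limma adjusted p = 0.127).

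All 7 tested ERAD genes rose in both genotypes, and 5 of the 7 had a lower response in RA. Herpud1, a membrane protein that organises the degradation complex, was at 86.8 and 90.9 in fed WT, 739.2 and 736.6 in starved WT, 72.2 and 75.8 in fed RA, and 614.4 and 598.5 in starved RA. As for Xbp1, RA was lower by the same step in both media, with log2 differences of -0.26 (SE 0.039) in normal medium and -0.28 (SE 0.039) under starvation. The interaction was -0.02 (95% interval -0.14 to 0.10, limma adjusted p = 0.772). Sel1l, the partner of the ubiquitin ligase HRD1, was at 64.3 and 63.4 in fed WT, 442.9 and 422.9 in starved WT, 61.3 and 59.4 in fed RA, and 236.9 and 241.7 in starved RA. Sel1l had the largest interaction of the ERAD genes, at -0.77 (SE 0.056, limma adjusted p = 7.07e-09). Syvn1, which encodes HRD1 itself, rose by 1.61 in WT against 1.44 in RA. Its interaction of -0.17 (limma adjusted p = 0.0155) was lost without the first sample of fed WT (limma adjusted p = 0.0531), the first of starved WT (0.0517) or the second of starved RA (0.0569). It was also lost with edgeR on recovered reads (adjusted p = 0.054) and with scaling to total reads (limma adjusted p = 0.163).

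Derl1 and Derl2, members of the derlin family of the retrotranslocation machinery, had log2 changes of 1.49 and 0.79 in WT, against 1.06 and 0.38 in RA. Derl3, the third derlin, was low throughout, at 0.348 and 0.161 in fed WT, 0.901 and 0.749 in starved WT, 0.230 and 0.136 in fed RA, and 0.196 and 0.0826 in starved RA. Its starved WT samples were the highest. Edem1, a mannosidase-like protein that directs glycoproteins to degradation, rose by 1.79 in WT and 1.21 in RA. Its relative Edem2 rose by 0.67 in WT against 0.41 in RA. Its interaction was -0.26 (95% interval -0.49 to -0.03, limma adjusted p = 0.0522). The adjusted p of Edem2 crossed the threshold without the second sample of fed WT (-0.368, limma adjusted p = 0.0123), the first of starved WT (-0.334, 0.0309) or the first of fed RA (-0.345, 0.0162). It also did so with median-ratio scaling (-0.277, 0.0394).

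To examine whether the genotypes differed before starvation, RA and WT were compared in normal medium. Here 1 of the 33 ER genes was higher in RA (Atf6) and 6 were lower (Xbp1, Herpud1, Dnajc3, Creld2, Syvn1 and Hspa5), against 6.68% higher and 2.95% lower of all genes. Every difference was small, between -0.26 and 0.22 on the log2 scale, with a median of -0.06 over the ER genes and 0.01 over all genes. The lowest adjusted p-values (limma) were 0.000311 for Herpud1 and 0.000486 for Xbp1, and the highest of those called was 0.0488 for Hspa5. The count depended on the samples and the scaling. Without the first sample of fed WT 2 of the 33 were called, without the second 4. With scaling to total reads 12 were called, all lower in RA. That scaling turned the split of calls over all genes from 69.4% higher in RA to 40.4% higher.

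Under starvation, 32 of the 33 ER genes had lower levels in RA and 0 had higher levels, while 32.1% of all genes were lower and 30.8% higher. At least 2-fold lower levels were seen for 6 ER genes (Ero1lb, Calr, Hyou1, Hsp90b1, Dnajb9 and Creld2) and 1.25% of all genes. The median log2 difference was -0.69 over the ER genes and -0.01 over all genes. Starved RA cells held less than 60% of the starved WT level for 15 genes, 60% to 80% for 9 and more than 80% for 9. These ranges were not counted over all genes, so the counts have no background. Edem2 was the tested ER gene not called lower, at 34.5 and 38.2 in starved WT and 34.8 and 35.7 in starved RA. Its samples overlapped, and its difference was -0.04 (95% interval -0.20 to 0.12).

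In the order of starved differences, Ero1lb stood first at -1.57 (SE 0.086), and its interval (-1.75 to -1.38) did not meet that of the next gene, Calr (-1.10, interval -1.20 to -0.99). Calr, Hyou1 (-1.07), Hsp90b1 (-1.04), Dnajb9 (-1.03) and Creld2 (-1.01) followed, with intervals that overlapped each other. Toward the other end Hspa5 (-0.27), Ern1 (-0.27), Xbp1 (-0.28) and Herpud1 (-0.28) had intervals that overlapped throughout. Hspa5 and the gene of its J-domain partner Dnajb9 therefore lay far apart in the order.

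**Figure D5:**
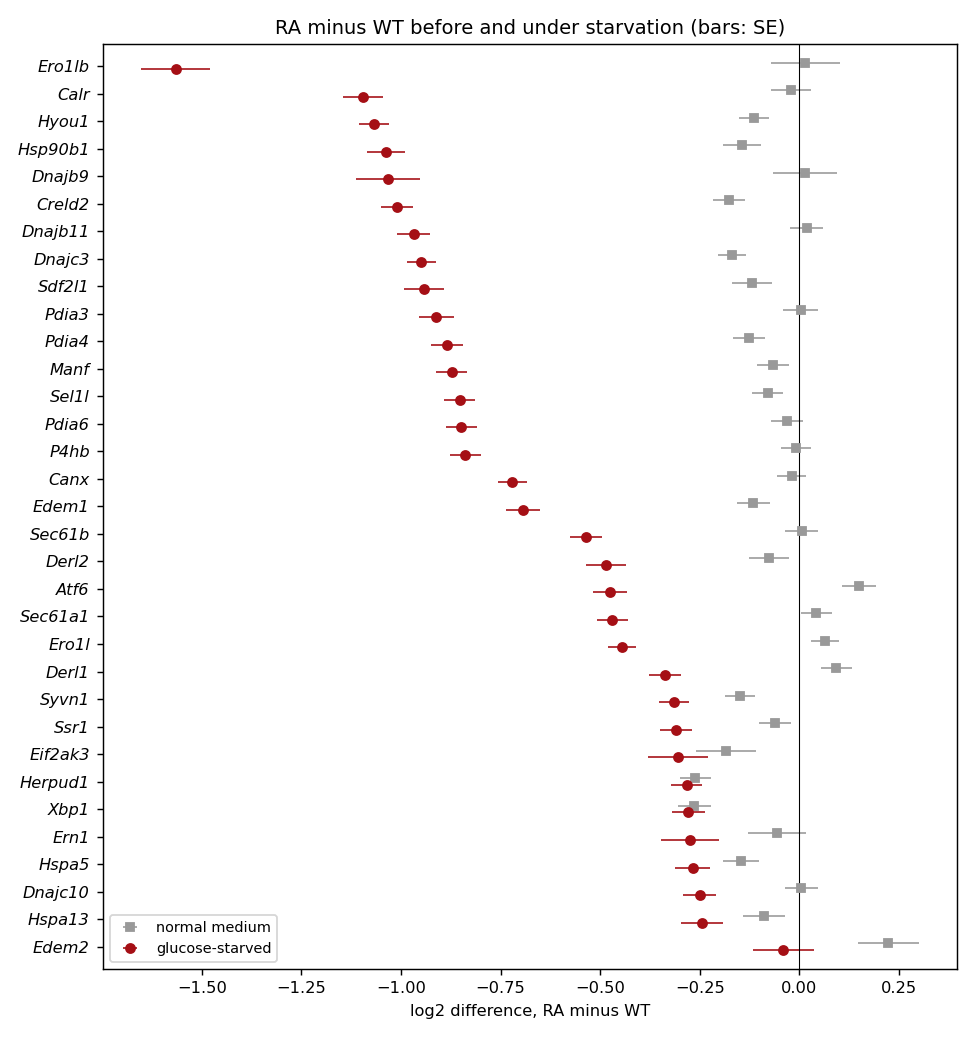
Log2 difference between RA and WT (x axis) for the 33 tested ER genes in normal medium (grey squares) and under starvation (red circles), with SE bars, ordered by the starved difference. The grey points lie between -0.26 and 0.22, and the red points run from -1.57 (Ero1lb) to -0.04 (Edem2); for Xbp1 and Herpud1 both points lie together.

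The promoter elements shown above were set beside these responses as a description. The 11 tested genes with an ERSE or ERSE-II had a median log2 change of 1.61 in WT (1.08 for Canx to 3.28 for Ero1lb) and a median interaction of -0.82. The 16 genes with a window but no exact match had medians of 1.20 (-0.34 for Ssr1 to 3.30 for Dnajb9) and -0.52. The ranges overlapped widely. Interactions among genes with an element ran from -1.58 (Ero1lb) to -0.02 (Herpud1), and Hspa5 and Hsp90b1, each with an ERSE, had interactions of -0.12 and -0.89. No window was used here for Atf6, Hyou1, Hspa13, Manf, Sec61a1 and Derl1.

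A further 74 genes of the same pathways, in 5 lists, were counted to place the ER genes. Of these, 55 rose and 9 fell in WT (39.3% and 39.2% of all genes), and 35 rose and 15 fell in RA (35% and 33.7% of all genes). Entry into the ER had 14 of 15 genes up in WT and 4 in RA, N-glycan addition and trimming 8 and 4 of 12, other folding genes 8 and 6 of 13, other ERAD genes 17 and 12 of 20, and other stress regulators 8 and 9 of 14. In normal medium 6 of the 74 were higher and 1 lower in RA, near the 6.68% and 2.95% of all genes. Under starvation 12 were higher and 58 lower in RA (30.8% and 32.1% of all genes), and the interaction was higher for 7 and lower for 54 (24.5% and 26.1%). The medians of these 74 were 0.44 in WT, 0.10 in RA and -0.35 for the interaction, smaller in size than those of the 33 ER genes.

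The highest log2 changes in WT within these lists were those of Ddit3 (4.13), the transcription factor CHOP, Ppp1r15a (3.87), the phosphatase subunit GADD34, and Chac1 (3.66), which degrades glutathione. In RA they rose by 3.67, 2.90 and 3.26. The lowest were Creb3l1 (-1.34), an ER-bound transcription factor, Vcp (-0.90), the ATPase that extracts ERAD substrates, and Serpinh1 (-0.54), the collagen chaperone HSP47. Creb3l1 was at 30.9 ± 0.59 in fed WT and 11.6 ± 0.27 in starved WT, but at 32.7 ± 1.2 and 32.02 ± 2.1 in RA, an interaction of 1.31 (SE 0.093, limma adjusted p = 5.97e-09). Atf4, the transcription factor translated when PERK or other eIF2alpha kinases are active, was named after its values were seen. It rose by 1.12 in WT against 1.16 in RA, with an interaction of 0.04 (SE 0.061, limma adjusted p = 0.614).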

How the data were processed

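Libraries of polyA RNA (TruSeq v2) were sequenced by the authors as paired ends on an Illumina HiSeq instrument and mapped to mm9 with TopHat2 (version 2.0.9, from the submitters' processing notes, which also name bedtools and edgeR). Strand handling, gene annotation and filters are not given in the sources used here. The authors deposited a signal per gene symbol, CPM of a library size scaled per sample. In every sample 100% of nonzero values were whole reads within 0.1 read, so reads were recovered. Of recovered counts from 1 to 9, 78.2% to 80.5% were even. CPM was the planned unit, and the planned test was kept. Columns named minus and plus were read as normal and starved, as the study marks glucose starvation.

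The 16232 genes that reached a value of 1 in 2 or more samples were tested with limma 3.58.1 (R 4.3.3) on log2(value + 1), with group means over all 8 samples, eBayes with trend and 2-sided p-values, adjusted by Benjamini-Hochberg over all genes. Fold changes on this scale understate those of low genes. SE and intervals come from this fit. Alternatives were a pseudocount of 0.1, no filter, total-read and median-ratio scaling, only the groups compared, a replicate block, leaving out each sample, and edgeR 4.0.16 and DESeq2 1.42.0 on recovered reads, which gave 8096 and 7449 genes for the interaction against 8207 with limma.

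Replicates differed by more than independent counts of reads would. Chi-square per gene was 3.33 in fed WT, 5.6 in starved WT, 5.99 in fed RA and 14.65 in starved RA. Since most low counts were even, recovered reads may not be independent counts, and these values may overstate the excess. The same limit holds for the 3-read level. The study describes its experiments as repeated independently, without saying whether the 2 libraries of a group came from separate cultures, so p-values measure only the spread between these samples. The members and lists were chosen with earlier results of these data known. Values per sample were given for 10 chosen genes and, in each role, for the genes with the largest and smallest interaction; of other pathway genes the 3 highest and 3 lowest in WT were named. RefSeq and GENCODE M21 coordinates are on GRCm38, not the build of the files.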

Additional observations from a re-analysis of the deposited data

Results flagged for a closer look

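The response to starvation differed between RA and WT for 26 of the 33 tested ER genes (interaction in limma, Benjamini-Hochberg adjusted p under 0.05), each of which is listed here with its log2 value, RA response less WT response. Of the sensors, Atf6 had -0.63. Among the chaperones it was -0.89 for Hsp90b1, -0.95 for Hyou1, -1.05 for Dnajb9, -0.99 for Dnajb11, -0.78 for Dnajc3, -0.25 for Dnajc10, -0.82 for Sdf2l1, -0.81 for Manf and -0.83 for Creld2. Among the lectin chaperones it was -1.07 for Calr and -0.7 for Canx. Among the disulfide enzymes it was -0.91 for Pdia3, -0.76 for Pdia4, -0.82 for Pdia6, -0.83 for P4hb, -0.51 for Ero1l and -1.58 for Ero1lb. Among the translocon genes it was -0.51 for Sec61a1, -0.54 for Sec61b and -0.25 for Ssr1. Among the ERAD genes it was -0.43 for Derl1, -0.41 for Derl2, -0.17 for Syvn1, -0.77 for Sel1l and -0.58 for Edem1. Of all 16232 genes, the interaction was higher for 24.5% and lower for 26.1%. A lower value also covers genes that fell more in RA, as Ssr1 did. In P4hb the samples of WT and RA moved in opposite directions.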

How the results depend on the processing

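Each member's log2 difference in the 5 contrasts was recomputed under the alternatives, 2079 values in all. Of these, 1973 kept their direction and side of the threshold, 29 lost the call, 31 gained one and 46 turned sign, with 0 of the 46 called on either side. With total-read scaling those that turned were Sec61b for starvation in WT (-0.0665), RA against WT in normal medium for Dnajb9 (-0.0306), Dnajb11 (-0.0292), Dnajc10 (-0.043), Pdia3 (-0.0453), Ero1lb (-0.0265), Sec61a1 (-0.00564) and Sec61b (-0.042), and the interaction of Xbp1 (0.0555) and Herpud1 (0.0497). With edgeR they were Sec61b for starvation in WT (-0.0311), Dnajb9 (-0.00708), Dnajc10 (-0.00337), Pdia3 (-0.00606) and Sec61b (-0.0032) in normal medium, and the interaction of Xbp1 (0.0166) and Herpud1 (0.0107). With DESeq2 they were Sec61b for starvation in WT (-0.00146) and Dnajb9 (-0.0127), Dnajc10 (-0.011), Pdia3 (-0.0133) and Sec61b (-0.0104) in normal medium, and with median-ratio scaling Dnajc10 (-0.000147) and Pdia3 (-0.00219) there. Leaving out a sample gave ranges through 0 for Sec61b in WT (-0.00937 to 0.0219), Dnajc10 in RA (-0.0421 to 0.0652), Edem2 between starved genotypes (-0.111 to 0.0292), the interaction of Herpud1 (-0.0561 to 0.0131), and in normal medium Ern1 (-0.183 to 0.0681), Dnajb9 (-0.132 to 0.159), Dnajc10 (-0.0488 to 0.0584), Calr (-0.0772 to 0.0354), Pdia3 (-0.0257 to 0.0312), Pdia6 (-0.0661 to 0.00322), P4hb (-0.031 to 0.0147), Ero1lb (-0.0773 to 0.107) and Sec61b (-0.0101 to 0.0212). The count of members called was 32 for starvation in WT (31 to 32 when a sample was left out), 30 in RA (30 whichever sample was left out), 32 for starved RA against WT (likewise 32) and 26 for the interaction (25 to 28). Without the filter, which adds Derl3, these counts were 33, 30, 33 and 27. The count for RA against WT in normal medium, 7, was the one that depended on the settings: 4 without the filter, 12 with total-read scaling, 4 with only the groups compared, and 2 to 8 when a sample was left out. With the replicate block it was 11 (2 higher and 9 lower in RA), and the block gave 32, 30, 32 and 29 members in the other 4 contrasts, adding Ern1 (adjusted p = 0.0446 in limma), Hspa13 (0.0477) and Edem2 (0.0131) to the interaction. The difference between the first and second sample of a group was correlated across genes with that of each other group. These correlations were between -0.008 and 0.157, so the numbers were not taken to pair the samples. The block called 2059 genes in normal medium against 1563 without it. In normal medium edgeR called 8 and DESeq2 9 members, all lower in RA. Over all genes, edgeR called 1555, of which 63.8% were higher in RA, and DESeq2 called 1399, of which 61.6% were higher. Without the filter 650 genes were called in normal medium, and without its first WT sample 559. Total-read scaling moved the median interaction of all genes from -0.01 to 0.05. Derl3 did not pass the filter, and its levels rested on few reads. The causes were not tested.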
